A study of Homo sapiens with 12 samples.

Results

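The 10 genes described here encode the receptors that detect DNA or RNA in the cytosol and the proteins that pass the signal to the nucleus. They were taken by gene name from a table of FPKM (fragments normalised to gene length and library size) for 58735 genes. All 10 were found: DDX58, IFIH1 and DHX58 (RNA sensors), CGAS (the DNA sensor, also called MB21D1), TMEM173 (its adaptor, better known as STING), TREX1 (a DNA exonuclease), MAVS (the adaptor of the RNA sensors), TBK1 (a kinase), and IRF3 and IRF7 (transcription factors). Of these, 7 had a mean of at least 1 FPKM over all libraries and were tested among 13609 genes. DHX58, CGAS and TREX1 lay below that level and are described by their values.

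The cells were TFK1, an established human line from cholangiocarcinoma, a cancer of the bile ducts, labelled WT. With 3 biological replicates each per the labels, the 12 libraries formed 4 groups: an untreated control (0 Gy, 0 ng/ml), radiation alone (6 Gy), nab-paclitaxel alone (1.62 ng/ml), and a combination of the same radiation dose and drug concentration. Nab-paclitaxel is albumin-bound paclitaxel, which stabilises microtubules. RNA was taken at 24 h in all groups, and the study asked how the drug raises their sensitivity to radiation. The data come from 1 cell line in culture. The sources used here do not say whether the replicates were separate cultures, so p-values measure the spread between these libraries.

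The libraries held 14840283 to 17992242 fragments. Control 2, nab-paclitaxel 1 and combination 2 deviated from their groups in like ways across genes (r = 0.332 to 0.543 between their deviations, given as a description), so results that change without these 3 libraries are given both ways. Markers of the epithelium were abundant, with KRT19 at a mean of 418.7 FPKM, but KRT7 (0.533 FPKM), which also marks bile duct cells, was below 1 FPKM. The summed level of 8 such markers was 719 to 905 FPKM in control and 1345 to 1702 FPKM in the combination. Of the macrophage markers 0 of 10 reached a mean of 1 FPKM, and 2 of 10 were listed at 0 in every library. Their summed level was 0.761 to 1.20 FPKM in control libraries and 1.27 to 1.71 FPKM in combination libraries, and the part of either sum in the results below was not tested. In RNA from whole cultures, a change in the number of cells that express a gene and a change in RNA per cell cannot be told apart.

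Cells detect misplaced nucleic acid in the cytosol by separate routes for DNA and RNA. On DNA, cGAS makes a cyclic dinucleotide that activates STING. The RNA sensors RIG-I (DDX58) and MDA5 (IFIH1) bind double-stranded RNA and act through MAVS on mitochondria. LGP2 (DHX58) lacks their signalling domains and modulates both. Both routes converge on TBK1, which phosphorylates IRF3 and IRF7, and these factors switch on interferon and other antiviral genes. Broken or missegregated chromosomes can leave DNA in the cytosol, so the pathway is widely studied after radiation and after drugs that disturb mitosis. DDX58, IFIH1, DHX58 and IRF7 are themselves known interferon-inducible genes.

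The 2 genes that passed the test in this set were DDX58 and IFIH1. The upstream sequence of both is shown because interferon regulatory factors bind a short repeated GAAA core. Promoters were taken from RefSeq (GRCh38.p14) as 250 bases before to 50 bases after the start, and 5 of the 10 genes had an entry (DDX58, IFIH1, MAVS, TBK1 and TREX1). The core AANNGAAA was searched on both strands and is in capitals, which on the opposite strand appear as the reverse complement. The stretches below are on the minus strand, 5′ to 3′. That of DDX58 covers chr9:32526305-32526418 and that of IFIH1 chr2:162318685-162318863, both upstream of the RefSeq start. That start lies inside the gene as the deposited table bounds it, so the last bases of each stretch also lie in the gene by those bounds.
DDX58: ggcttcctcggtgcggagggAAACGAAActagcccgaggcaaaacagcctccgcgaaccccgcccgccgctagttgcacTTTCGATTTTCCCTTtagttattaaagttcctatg
IFIH1: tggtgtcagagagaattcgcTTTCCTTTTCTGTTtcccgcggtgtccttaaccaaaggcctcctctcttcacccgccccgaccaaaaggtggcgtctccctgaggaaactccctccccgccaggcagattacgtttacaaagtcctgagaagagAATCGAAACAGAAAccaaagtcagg

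DDX58 held 3 core matches, 1 at 202 bases upstream and 2 overlapping ones on the opposite strand at 143 and 136 bases upstream. IFIH1 held 4, in overlapping pairs at 159 and 153 bases upstream on the opposite strand and at 25 and 19 bases upstream. The longer interferon-stimulated response element GAAANNGAAA, whose matches overlap the core matches, was present 3 times in IFIH1 and 0 times in DDX58. The core occurred in 22.8% of all 35114 promoters of this length and the longer element in 3.57%. In the windows of MAVS, TBK1 and TREX1 neither set of letters was found. A match describes the letters only and shows no binding.

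Both signalling RNA sensors rose in the combination. DDX58 (ENSG00000107201, chromosome 9, 32455705 to 32526324, hg38, minus strand) encodes RIG-I, which recognises short double-stranded RNA with a phosphorylated end. Its level was 6.56, 8.11 and 5.76 FPKM in control, 8.84, 8.27 and 7.41 FPKM after radiation, 9.37, 6.56 and 7.95 FPKM in nab-paclitaxel, and 10.8, 13.2 and 10.4 FPKM in the combination (replicates 1, 2 and 3). Each combination library was above every library of the other 3 groups, while the single treatments overlapped the control. How many of all genes separate groups in this way was not counted, here or below.

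Mean DDX58 was 6.81 ± 1.19 FPKM without treatment, 8.17 ± 0.719 after radiation, 7.96 ± 1.40 after nab-paclitaxel and 11.45 ± 1.53 after the combination (SD, n = 3). The combination mean was thus 1.68 times the control mean, and limma's log2 fold change on log2(FPKM + 1) was 0.68 ± 0.14 (SE), with a 95% interval of 0.37 to 0.99 and an adjusted p of 0.00632. Against control, the log2 fold change was 0.24 ± 0.14 for radiation (adjusted p 0.395) and 0.20 ± 0.14 for nab-paclitaxel (adjusted p 0.405). Adding the drug to radiation gave 0.44 ± 0.14 (adjusted p 0.0823), and adding radiation to the drug gave 0.48 ± 0.14 (adjusted p 0.0945). Neither passed, although all combination libraries were higher in both, and the first passed without nab-paclitaxel 1 (0.44, adjusted p 0.0489). Without the 3 deviating libraries, in each of which DDX58 was the highest of its group, the combination against control was 0.70 (adjusted p 0.00169). The fit without them also called DDX58 higher after radiation alone (0.36, adjusted p 0.0324), in the combination over radiation (0.34, adjusted p 0.0308) and in the combination over nab-paclitaxel (0.49, adjusted p 0.0248).

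IFIH1 (ENSG00000115267, chromosome 2, 162267079 to 162318703, hg38, minus strand) encodes MDA5, which recognises long double-stranded RNA. Its level was 2.94, 3.93 and 2.68 FPKM in control, 3.75, 3.32 and 3.21 FPKM after radiation, 5.11, 3.88 and 4.20 FPKM in nab-paclitaxel, and 5.17, 6.37 and 5.19 FPKM in the combination. The combination libraries lay above all others, the nearest being nab-paclitaxel 1. The nab-paclitaxel libraries lay above control 1 and control 3 and overlapped only control 2.

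Mean IFIH1 was 3.18 ± 0.658 FPKM without treatment, 3.43 ± 0.284 after radiation, 4.40 ± 0.639 after nab-paclitaxel and 5.58 ± 0.688 after the combination (SD, n = 3), a ratio of 1.75 between combination and control. The log2 fold change was 0.66 ± 0.13 (95% interval 0.38 to 0.94, limma's adjusted p 0.00423). IFIH1 also rose in the combination over radiation alone, by 0.57 ± 0.13 (95% interval 0.29 to 0.85, adjusted p 0.0242), where the means had a ratio of 1.63. That call was lost when any single library of radiation or combination was left out, with adjusted p between 0.0561 and 0.0901, and without the filter on low values (adjusted p 0.0657). For nab-paclitaxel against control the value was 0.37 ± 0.13 (adjusted p 0.0893), which passed without control 2 (0.50, adjusted p 0.0362) and without the 3 deviating libraries (0.40, adjusted p 0.0181). Radiation against control gave 0.09 ± 0.13 (adjusted p 0.775), with an interval of -0.19 to 0.37. IFIH1 too was the highest of its group in each deviating library, and without them the combination against control was 0.70 (adjusted p 5.69e-04).

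DDX58 and IFIH1 called as higher make 2 of the 7 tested members in the combination against control, where 12.2% of all 13609 genes were called higher and 22.9% were called in either direction. In the combination against radiation 1 of 7 was called higher, beside 4.81% of all genes called higher and 7.75% in either direction. The members were chosen with earlier results of these data known, so these counts are not independent evidence. The fit without the 3 deviating libraries called 37.1% of genes for the combination against control, 21.7% for radiation against control, 13.5% for nab-paclitaxel against control, 30.3% for the combination against radiation and 9.56% for the combination against nab-paclitaxel. Across the 12 libraries the log2 levels of DDX58 and IFIH1 correlated at r = 0.909, over libraries that share the same treatments and the same deviating libraries. IFIH1 was only the 51st gene by likeness to DDX58. The 3 genes most like DDX58 were ANKRA2 (r = 0.980), NRDC (0.978) and DDX60 (0.964), and those most like IFIH1 were TTC19, KDM3A and KLHL7 (each 0.974).

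**Figure D1:**
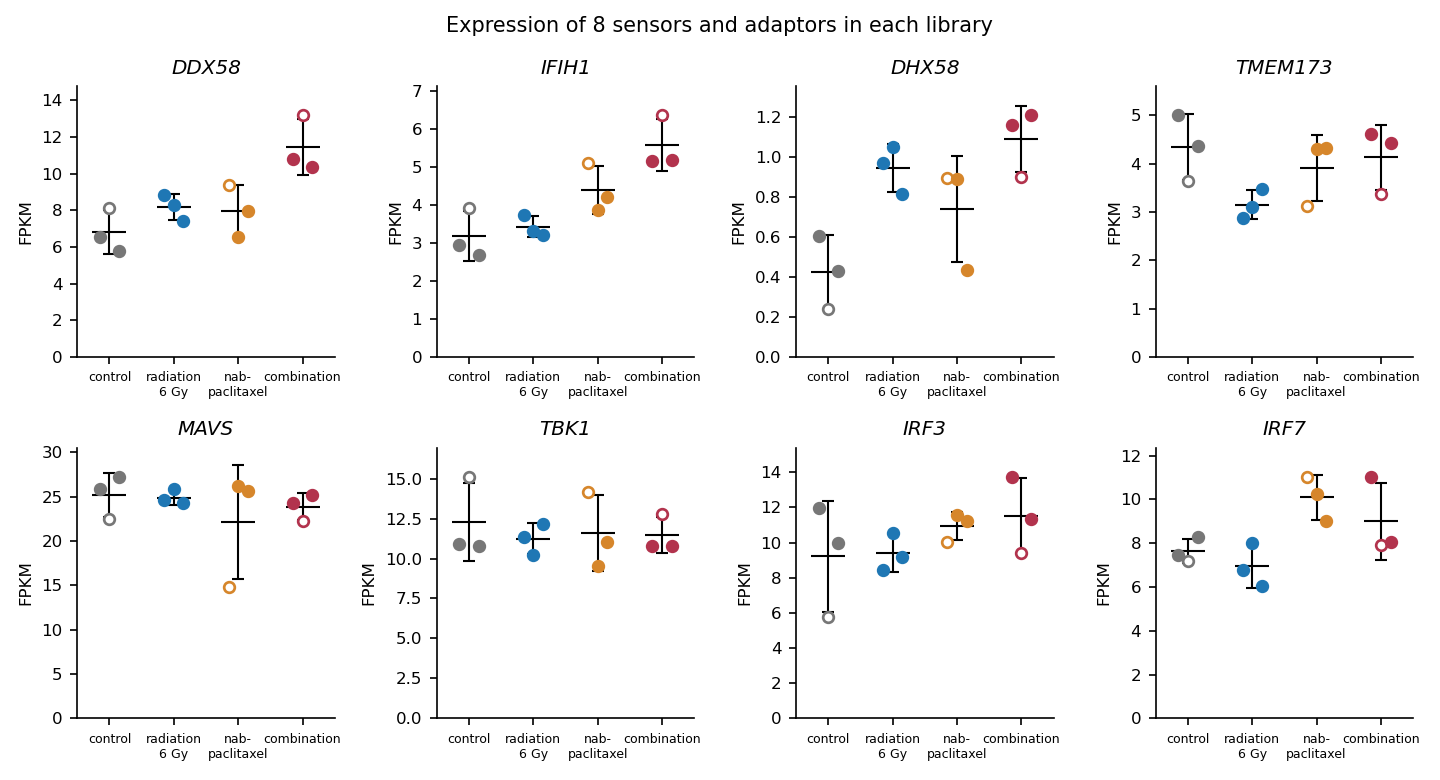
FPKM of 8 genes in each library, by group, with the mean (line) and SD (bars) of 3 libraries, and open circles for control 2, nab-paclitaxel 1 and combination 2. DDX58 and IFIH1 are highest in all 3 combination libraries, at 10.4 to 13.2 and 5.17 to 6.37 FPKM, while MAVS, TBK1 and IRF3 overlap between control and every treatment.

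DHX58 (ENSG00000108771, chromosome 17, 42101404 to 42112733, hg38, minus strand), the modulator LGP2, was low in every library. It had 37, 14 and 25 fragments in control (0.604, 0.237 and 0.430 FPKM), 63, 72 and 54 in radiation (0.972, 1.05 and 0.815 FPKM), 54, 60 and 30 in nab-paclitaxel (0.892, 0.892 and 0.434 FPKM), and 79, 55 and 79 in the combination (1.16, 0.901 and 1.21 FPKM). All radiation and all combination libraries were above all control libraries, and nab-paclitaxel 3 fell within the control range. The mean was 0.424 ± 0.184 FPKM without treatment, 0.945 ± 0.118 after radiation, 0.739 ± 0.265 after nab-paclitaxel and 1.09 ± 0.167 after the combination (SD, n = 3).

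Because DHX58 was under the minimum for the test, it was fitted with limma's voom on recovered fragments without a filter, an analysis added after seeing the data. The log2 fold change of fragments was 1.43 ± 0.35 for the combination against control (95% interval 0.70 to 2.16, adjusted p 0.0140), where 4.08% of 38818 genes were called higher. It was 1.22 ± 0.35 for radiation (adjusted p 0.0850) and 0.79 ± 0.37 for nab-paclitaxel (adjusted p 0.295). The combination call was lost without control 2 (1.07, adjusted p 0.0810), control 3 (1.49, adjusted p 0.0574), combination 1 (1.38, adjusted p 0.0649) or combination 3 (1.35, adjusted p 0.0712). It was also lost without the 3 deviating libraries together (1.20, adjusted p 0.0554) and on log2(FPKM + 1) (0.56, adjusted p 0.0508).

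Of the DNA arm, CGAS was near 0 and TMEM173 was expressed. CGAS (ENSG00000164430, chromosome 6, 73413515 to 73452276, hg38, minus strand), which makes the messenger for STING, had 0 to 3 fragments per library and 9 fragments in all. Radiation libraries had 0, control 2 in total, nab-paclitaxel 2 and the combination 5. A count of 0 allows up to 3 fragments, or 0.0401 to 0.0478 FPKM depending on the library, and covers counting error only. No difference in CGAS was detectable at this depth, and no fold is given.

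TMEM173 (ENSG00000184584, chromosome 5, 139475534 to 139482935, hg38, minus strand) encodes STING, the receptor of the messenger, on the endoplasmic reticulum. Its level was 5.01, 3.64 and 4.36 FPKM in control, 2.88, 3.09 and 3.47 FPKM after radiation, 3.12, 4.30 and 4.32 FPKM in nab-paclitaxel, and 4.61, 3.37 and 4.42 FPKM in the combination. All radiation libraries were below all control libraries, whereas the other groups overlapped the control. The share of all genes so separated was not counted. The radiation mean was 3.15 ± 0.297 FPKM against 4.34 ± 0.685 in control, a ratio of 0.726 (SD, n = 3).

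The log2 fold change of TMEM173 after radiation was -0.36 ± 0.14 (95% interval -0.66 to -0.06, limma's adjusted p 0.170), so it did not pass. In the combination against control it was -0.06 ± 0.14 (95% interval -0.36 to 0.25, adjusted p 0.804) and in the combination against radiation 0.30 ± 0.14 (adjusted p 0.198). TMEM173 was the lowest of its group in each of the 3 deviating libraries. Without them it was called lower after radiation (-0.46 ± 0.08, adjusted p 0.00682) and higher in the combination than in radiation alone (0.41 ± 0.08, adjusted p 0.00753). Those calls rest on 2 control and 2 combination libraries. That fit called 21.7% of all genes for radiation against control and 30.3% for the combination against radiation. The libraries left out were chosen with these data known.

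TREX1 (ENSG00000213689, chromosome 3, 48465811 to 48467645, hg38, plus strand), which degrades cytosolic DNA, was listed at 0 in all 12 libraries. In GENCODE 29 all 1515 of its exon bases lie within exons of ATRIP on the same strand, and ATRIP was at 1.74 to 2.95 FPKM. Reads from these bases cannot be assigned to TREX1 by position alone, so the listed 0 is not a measure of its expression.

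MAVS, TBK1, IRF3 and IRF7 showed no called difference between groups with all libraries included. MAVS (ENSG00000088888, chromosome 20, 3846799 to 3876123, hg38, plus strand) had the highest mean FPKM of the 10. It was at 25.9, 22.5 and 27.3 FPKM in control, 24.6, 25.8 and 24.2 FPKM after radiation, 14.8, 26.1 and 25.6 FPKM in nab-paclitaxel, and 24.3, 22.2 and 25.1 FPKM in the combination. Nab-paclitaxel 1 stood far below the other 11 libraries. The log2 fold change of the combination against control was -0.07 ± 0.17 (95% interval -0.45 to 0.31, adjusted p 0.799).

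TBK1 (ENSG00000183735, chromosome 12, 64451880 to 64502108, hg38, plus strand), the kinase on which both routes meet, was at 10.9, 15.1 and 10.8 FPKM in control, 11.3, 10.2 and 12.2 FPKM after radiation, 14.2, 9.55 and 11.0 FPKM in nab-paclitaxel, and 10.8, 12.8 and 10.8 FPKM in the combination. The groups overlapped in each comparison, and the deviating library was the highest in each group that held one. The combination differed from control by -0.08 ± 0.15 on the log2 scale (95% interval -0.41 to 0.25, adjusted p 0.743). An antisense gene covers 14.7% of the exon bases of TBK1, and strand use in counting is not stated, but that gene had a mean of only 0.0374 FPKM.

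IRF3 (ENSG00000126456, chromosome 19, 49659569 to 49665875, hg38, minus strand) is the factor that TBK1 activates first and is present before stimulation. Its level was 11.9, 5.75 and 9.96 FPKM in control, 8.45, 10.6 and 9.18 FPKM after radiation, 10.0, 11.6 and 11.2 FPKM in nab-paclitaxel, and 13.8, 9.41 and 11.4 FPKM in the combination. The wide control range, set by control 2, overlapped all treatments. The log2 fold change of the combination against control was 0.33 ± 0.21 (95% interval -0.12 to 0.78, adjusted p 0.274). Without the 3 deviating libraries IRF3 was called higher in the combination than in radiation alone (0.38 ± 0.11, adjusted p 0.0347), where that fit called 30.3% of all genes. Of its exon bases 19.4% are shared with BCL2L12 on the opposite strand, at 6.76 to 11.9 FPKM. How fragments from shared bases were counted is not stated. They could have been given to either gene or left out.

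IRF7 (ENSG00000185507, chromosome 11, 612553 to 615999, hg38, minus strand) amplifies the interferon response. It was at 7.48, 7.21 and 8.28 FPKM in control, 6.79, 8.02 and 6.03 FPKM after radiation, 11.0, 10.3 and 9.01 FPKM in nab-paclitaxel, and 11.0, 7.90 and 8.07 FPKM in the combination. All nab-paclitaxel libraries were above all control libraries, with means of 10.1 ± 1.03 and 7.66 ± 0.557 FPKM (SD, n = 3) and a ratio of 1.32. The log2 fold change was 0.36 ± 0.13 (95% interval 0.07 to 0.65), and limma's adjusted p of 0.109 did not pass. In the combination it was 0.20 ± 0.13 (adjusted p 0.312), where combination 1 alone was high.

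After single treatments 0 of the 7 tested members were called. For radiation against control, where 5.93% of all genes were called, 1 member (TMEM173) had an unadjusted p under 0.05. For nab-paclitaxel against control, where 8.82% were called, 2 members had one (IFIH1 and IRF7), as did 3611 of all genes. For the combination against nab-paclitaxel, where 3.92% were called, 2 members had one (DDX58 and IFIH1), as did 2397 of all genes. Limma's voom on recovered fragments likewise called 0 members in each of these comparisons.

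The interaction asks whether the effect of radiation differs between cells with and without the drug. Limma called 0 of 7 members and 0% of all genes, with 0 members and 443 genes at an unadjusted p under 0.05. The value was 0.24 ± 0.20 for DDX58 (95% interval -0.20 to 0.68), 0.19 ± 0.18 for IFIH1 (95% interval -0.20 to 0.59) and 0.42 ± 0.19 for TMEM173 (95% interval -0.00 to 0.85). These intervals include no departure from additive log2 effects, and also departures as large as the single-treatment effects. Voom called 0 genes as well, and the fit without a filter called 5, none of them a member.

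**Figure D2:**
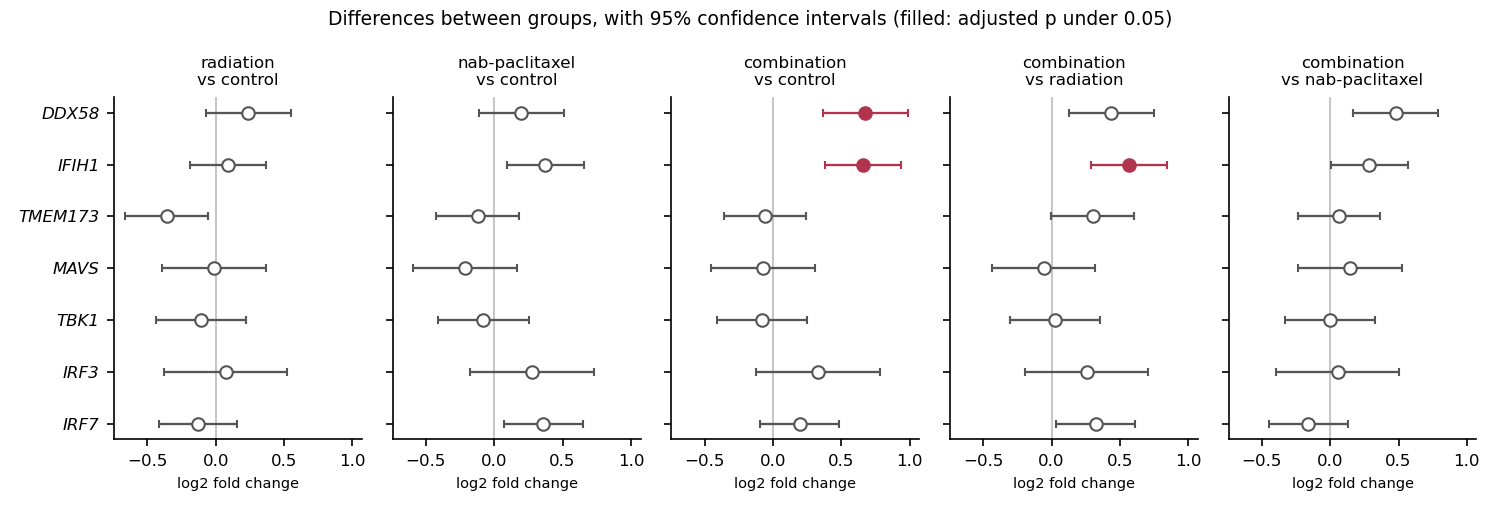
Log2 fold change on log2(FPKM + 1) of the 7 tested members in 5 comparisons, with 95% confidence intervals, filled where limma's adjusted p was under 0.05. DDX58 and IFIH1 lie at 0.68 and 0.66 in the combination against control, and IFIH1 at 0.57 in the combination against radiation is the other filled point.

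By mean level in control, which FPKM allows to be compared between genes, the order was MAVS, TBK1, IRF3, IRF7, DDX58, TMEM173, IFIH1, DHX58, CGAS and TREX1. MAVS (25.2 ± 2.46 FPKM, above 89.9% of tested genes) did not overlap TBK1 (12.3 ± 2.46 FPKM). TBK1, IRF3, IRF7 and DDX58 each overlapped the next in control, as did TMEM173 and IFIH1, so those neighbours did not differ beyond their spread. DDX58 was separated from TMEM173, and IFIH1 from DHX58. In the combination DDX58 (11.45 FPKM) stood beside TBK1 (11.5 ± 1.14 FPKM) and IRF3 (11.5 ± 2.18 FPKM), with overlap among all 3. IFIH1 was above TMEM173 there without overlap, whereas in control TMEM173 had the higher mean, with overlap. IFIH1 also had the higher mean after radiation (3.43 against 3.15 FPKM) and after nab-paclitaxel (4.40 against 3.91 FPKM), with overlap in both.

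Genes around these members were grouped by role into 10 further lists. The lists were chosen with earlier results of these data known, so their counts and medians are not independent evidence. Each count below is for the combination against control unless another comparison is named, beside 12.2% of all tested genes called higher and 10.6% called lower there. In the fit without the 3 deviating libraries these shares were 20% called higher and 37.1% called in either direction. Of 13 cofactors of RNA sensing, 11 were tested, 5 rose and 0 fell, with a median log2 fold change of 0.20 beside 0.00 over all tested genes. OASL, which binds RIG-I and enhances its signalling, rose most, from 2.62 ± 0.218 to 11.1 ± 0.352 FPKM (log2 fold change 1.74 ± 0.08, adjusted p 3.27e-07). It also rose after radiation alone (0.75 ± 0.08, adjusted p 4.89e-04) and after nab-paclitaxel alone (0.76 ± 0.08, adjusted p 8.21e-04).

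ZC3HAV1, an antiviral zinc finger protein that binds RNA, rose from 9.65 ± 0.330 to 16.5 ± 1.66 FPKM (0.71 ± 0.09, adjusted p 5.18e-04). RNF135, the ubiquitin ligase that activates RIG-I, rose from 2.22 ± 0.297 to 3.83 ± 0.529 FPKM (0.59 ± 0.10, adjusted p 0.00220). DDX60, a helicase linked to RIG-I, rose from 0.932 ± 0.345 to 2.51 ± 0.671 FPKM (0.86 ± 0.19, adjusted p 0.00789). The fifth was NLRX1, a mitochondrial protein reported to restrain MAVS (0.47 ± 0.12, adjusted p 0.0169), named after its value was seen. Its call was lost without combination 1 (adjusted p 0.0716) or combination 3 (adjusted p 0.0594) and with TPM scaling (adjusted p 0.0708). TRIM25, the other well-known ligase for RIG-I, did not pass (0.16 ± 0.10, adjusted p 0.283). After radiation 1 of the 11 rose, beside 2.48% of all genes, and after nab-paclitaxel 3 did, beside 5.41%. With the 3 deviating libraries left out, 5 rose and 1 fell in the combination.

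On the DNA side 1 gene passed in each of the next lists, a share near that over all tested genes. Of 12 other DNA sensors 8 were tested and 1 rose, XRCC6, the Ku70 subunit that binds broken DNA ends, from 96.8 ± 9.15 to 126.4 ± 6.28 FPKM (0.38 ± 0.08, adjusted p 0.00758). After nab-paclitaxel alone it rose to 141.7 ± 6.49 FPKM (0.55 ± 0.08, adjusted p 0.00582). Its partner XRCC5 did not pass (0.13 ± 0.10, adjusted p 0.398). In the fit without the 3 deviating libraries, where 37.1% of all genes were called, 4 rose, XRCC5 among them (0.18, adjusted p 0.0412), and 1 fell. Of 12 genes that clear nucleic acids 8 were tested and 1 rose, BANF1, a chromatin protein that competes with cGAS for DNA, from 33.0 ± 7.49 to 48.1 ± 8.57 FPKM (0.54 ± 0.15, adjusted p 0.0243). That call was lost in several alternatives, among them without control 2, control 3, combination 1 or combination 3 (adjusted p 0.0646 to 0.0961), without the filter (adjusted p 0.0707) and with quantile or TPM scaling (adjusted p 0.0579 and 0.0794). After nab-paclitaxel alone BANF1 rose to 53.7 ± 0.717 FPKM (0.71 ± 0.15, adjusted p 0.0186), a call lost without control 3 or nab-paclitaxel 2 (adjusted p 0.0585 and 0.0506), without the filter (0.0547) and with quantile or TPM scaling (0.0649 and 0.0554). ADAR and SAMHD1 were in this list and did not pass, at -0.03 ± 0.09 and -0.02 ± 0.07 (adjusted p 0.867 and 0.865).

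Of 13 partners of the adaptors and of TBK1 all 13 were tested and 1 rose, OPTN, a scaffold that binds TBK1, from 10.5 ± 0.0758 to 15.4 ± 0.256 FPKM (0.51 ± 0.07, adjusted p 6.10e-04). OPTN also rose after radiation alone (0.28 ± 0.07, limma's adjusted p 0.0371) and after nab-paclitaxel alone (0.29 ± 0.07, adjusted p 0.0308). Each of these single-treatment calls was lost in 12 of 21 alternatives. Of 14 regulators of STING and MAVS, all tested, 2 rose. RNF5, a ligase that marks STING for degradation, rose from 29.8 ± 5.12 to 41.5 ± 1.62 FPKM (0.48 ± 0.11, adjusted p 0.0121). TMEM203, a STING-binding membrane protein, rose by 0.43 ± 0.13 (adjusted p 0.0339), a call lost without control 1, control 3 or any 1 combination library (adjusted p 0.0660 to 0.0979), or without the filter on log2(FPKM + 1) (adjusted p 0.0875) or with voom without a filter (adjusted p 0.0634). Both counts are near the share over all genes. Without the 3 deviating libraries 4 of the 14 rose and 1 fell, near the 37.1% of all genes called in that fit.

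Neither IRF3 nor IRF7 passed the test, but other genes of the IRF family did. Of 10 such genes 7 were tested, 4 rose and 1 fell, and these counts were the same without the 3 deviating libraries. IRF1, which can switch on antiviral genes independently of IRF3, rose from 3.15 ± 0.586 to 5.06 ± 0.181 FPKM (0.56 ± 0.10, adjusted p 0.00296). IRF5 rose by 0.40 ± 0.10 (adjusted p 0.0126), a call lost without combination 1 (adjusted p 0.0501) or combination 3 (adjusted p 0.0587). IRF2, a repressor of IRF1 targets named after its value was seen, rose by 0.55 ± 0.14 (adjusted p 0.0153), a call lost without control 1 (adjusted p 0.0527) or combination 2 (adjusted p 0.0510). IRF2BPL, a binding partner and no IRF itself, fell from 74.3 ± 8.97 to 50.7 ± 4.92 FPKM (-0.54 ± 0.10, adjusted p 0.00346). After nab-paclitaxel alone 3 of the 7 rose, beside 5.41% of all genes called higher. Among them were IRF1 (0.45 ± 0.10, limma's adjusted p 0.0232) and IRF2 (0.54 ± 0.14, adjusted p 0.0356). After radiation alone 1 rose and IRF2BPL fell (-0.49 ± 0.10, adjusted p 0.0165), beside 5.93% called in either direction. These calls of IRF1, IRF2 and IRF2BPL were lost in 4 of 20, 10 of 20 and 6 of 21 alternatives.

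Of 8 genes of the endosomal toll-like receptors, a further route for nucleic acids, 4 were tested and 2 rose: the adaptor MYD88 (0.45 ± 0.08, adjusted p 0.00226) and the kinase IRAK4 (0.44 ± 0.11, adjusted p 0.0118). MYD88 also rose after nab-paclitaxel alone (0.28 ± 0.08, limma's adjusted p 0.0454), a call lost in 17 of 21 alternatives. The 7 interferon genes of the list all had a mean below 1 FPKM over the 12 libraries and were not tested. Their summed level was 0.665 to 1.33 FPKM in untreated libraries, 1.14 to 1.72 FPKM after radiation, 0.763 to 0.805 FPKM after the drug and 0.693 to 1.06 FPKM after both. IFNE had the highest mean, 0.613 FPKM, with 3 to 33 fragments per library. Its mean was 0.658 ± 0.394 FPKM in control and 1.05 ± 0.178 FPKM after radiation (SD, n = 3). It was 0.328 ± 0.250 FPKM after nab-paclitaxel and 0.414 ± 0.0691 FPKM in the combination. Radiation overlapped control, as control 2 (1.104 FPKM) was above radiation 1 and radiation 3 (1.005 and 0.905 FPKM). IFNB1 had 0 to 2 fragments per library. Of 13 interferon receptors and signalling genes 11 were tested and 0 passed, with a median of 0.16 and JAK1 at 0.03 ± 0.08 (adjusted p 0.786). Leaving out the 3 deviating libraries, 3 of them rose, where 20% of all genes were called higher.

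Among 14 targets of IRF3 and interferon 7 were tested and 7 rose, with a median of 0.95. The rest had a mean below 1 FPKM and were not tested. Of these, ISG20, MX1 and IFI27 had means of 0.804, 0.368 and 0.591 FPKM in control. In the combination their means were 0.799, 0.306 and 0.597 FPKM. CCL5 had means of 0.402 FPKM in control and 1.56 FPKM in the combination. RSAD2, CXCL10 and IFI44L had at most 9 fragments in any library. This list had been seen to rise in these data when it was drawn up, so its direction is not independent evidence. ISG15, a ubiquitin-like modifier, rose from 51.4 ± 8.79 to 170.2 ± 18.4 FPKM (1.72 ± 0.15, adjusted p 4.16e-05), and IFIT2, which binds viral RNA, from 1.37 ± 0.0663 to 4.56 ± 0.259 FPKM (1.23 ± 0.09, adjusted p 2.12e-05). HERC5, the ligase for ISG15, rose by 1.22 ± 0.12 (adjusted p 1.09e-04) and IFIT1 by 0.89 ± 0.10 (adjusted p 2.24e-04). After radiation 2 of the 7 rose and after nab-paclitaxel 4 did, beside the same 2.48% and 5.41% of all genes. Without the 3 deviating libraries 6 rose in the combination.

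**Figure D3:**
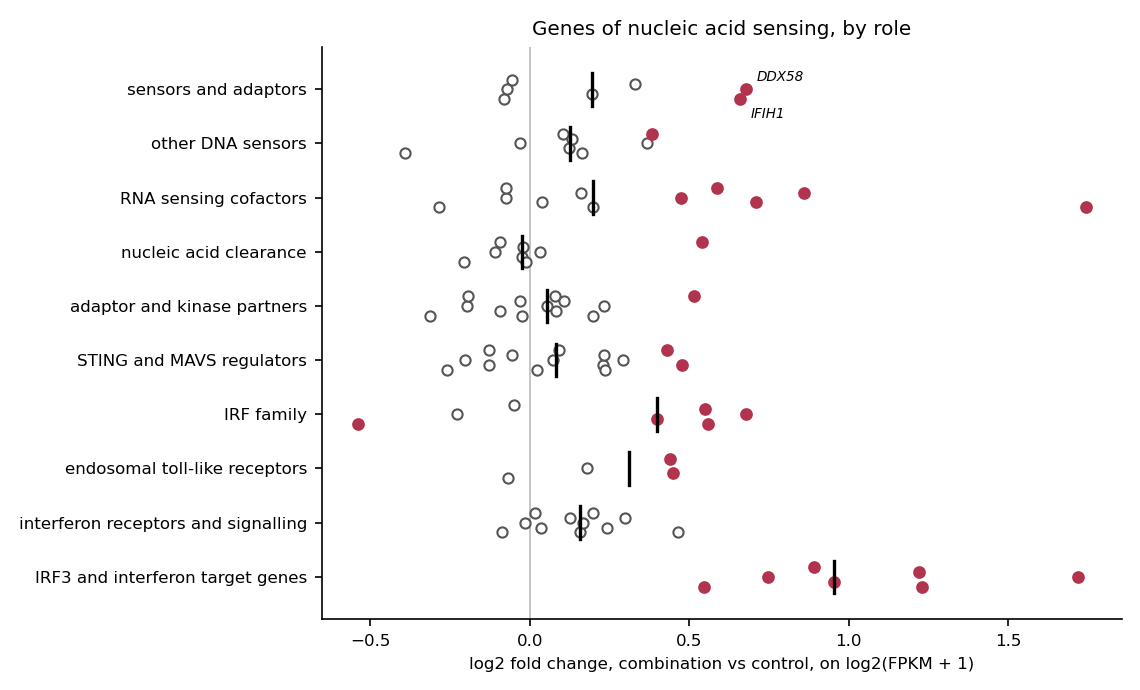
Log2 fold change on log2(FPKM + 1), combination against control, of each tested gene by list, filled where limma's adjusted p was under 0.05, with the list's median as a bar. Among the sensors and adaptors only DDX58 and IFIH1 are filled, OASL is the filled point farthest right among the RNA sensing cofactors at 1.74, and all 7 tested target genes are filled.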

How the data were processed

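The authors deposited 1 table of FPKM per gene, per the file headers, with gene lengths and 12 library columns. Per the submitters' processing notes, reads were placed on hg38. No source used here names the aligner, the counting tool or the use of strand. A SMARTer mRNA-seq kit was used, per the labels' protocols. FPKM times gene length was a whole multiple of 1 step in 100% of genes (within 0.05), which gave the fragment numbers. The deposited FPKM were scaled by a library factor other than the library's own total. All 58735 identifiers were found in GENCODE 29.

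Groups came from the labels. Limma 3.58.1 in R 4.3.3 was run with a mean-variance trend on log2(FPKM + 1) for the 13609 genes averaging at least 1 FPKM. All 4 groups shared 1 spread, with 8 residual and 3.39 prior degrees of freedom. Tests were two-sided, with Benjamini-Hochberg adjustment over all tested genes within each of 6 contrasts and a threshold of 0.05. The fit was tested on simulated fragments drawn independently for each library, so that test does not cover the deviation shared by 3 libraries. The pseudocount of 1 understates the fold change of low genes. The members and lists were chosen with earlier results of these data known, and so were the deviating libraries. All members were named, and from each list the 4 called genes of lowest p (fewer where fewer were called), or else the 2 of highest mean. Some genes so chosen are not reported here. Alternatives were no filter, a minimum mean of 5 FPKM, a pseudocount of 0.1, quantile normalization, TPM scaling, voom on recovered fragments, a replicate block, and leaving out libraries.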

Additional observations from a re-analysis of the deposited data

How the results depend on the processing

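DDX58 and IFIH1 were called higher in the combination against control in every alternative that tested them, with adjusted p of 0.00169 to 0.0264 and 5.69e-04 to 0.0183. The number of members called there was 2 and fell to 1 with a mean of at least 5 FPKM, which leaves IFIH1 untested. In the combination against radiation it was 0 with that minimum, 0 without a filter, 4 without the 3 deviating libraries, and 0 to 2 when 1 library was left out, the 2 being without nab-paclitaxel 1 (DDX58 0.44, adjusted p 0.0489). For nab-paclitaxel against control it was 1 without the 3 deviating libraries and 0 to 1 when 1 library was left out. Without those 3 it was 2 for radiation against control and 1 for the combination against nab-paclitaxel. That fit called more of all genes too. The shares were 30.3% for the combination against radiation and 13.5% for nab-paclitaxel against control. They were 21.7% for radiation against control and 9.56% for the combination against nab-paclitaxel. No call changed direction.

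With the replicate number as a block, the members called numbered 0, 0, 2, 1, 0 and 0 in the 6 contrasts, as without it. Same-numbered deviations correlated above 0.1 in all 3 pairs only for control and combination, and no label links the numbers to a batch. Counts over all genes moved by over 1.5 times. They went from 807, 1200, 1055 and 533 (radiation, nab-paclitaxel, combination against radiation, combination against nab-paclitaxel) to 531, 701, 606 and 306 with the block. They went to 2947, 1836, 4128 and 1301 without the 3 libraries, where the combination against control went from 3111 to 5049. Without a filter, nab-paclitaxel, combination against radiation and combination against nab-paclitaxel gave 579, 577 and 276. With quantile normalization nab-paclitaxel gave 789. With a minimum mean of 5 FPKM the combination against control gave 2018. The ranges when 1 library was left out were 320 to 1305, 524 to 1181, 218 to 1879 and 177 to 734, and 1964 to 3926 for the combination against control. Depth limits DHX58, CGAS and the interferon genes. The causes were not tested.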

Other observations

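The listing of TREX1 at 0 was set beside other genes whose exons lie within another gene. Of 282 protein-coding genes with all exon bases shared with another gene on the same strand, 186 (66.0%) were listed at 0 in all 12 libraries. Of 16526 protein-coding genes that share no exon base on the same strand, 1342 (8.12%) were. For overlap on the opposite strand, 17 of 18 fully covered genes (94.4%) and 1517 of 13211 genes with no shared base (11.5%) were at 0. These groups were defined after the value of TREX1 had been seen, and gene type, length and expression were not matched between them.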
